A study of Rattus norvegicus with 2 samples.

Results

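Dlx transcription factors and genes of GABA-releasing interneurons were followed as a named set of 10 genes: Dlx1, Dlx2, Dlx5, Dlx6, Lhx6, Gad1, Gad2, Slc32a1, Npy and Sst. The members were found by matching the RefSeq accession of each array probe to rat gene symbols. Probes were matched for 8 of the 10 members, out of 15443 genes with a matched probe, and 2 members (Dlx2 and Dlx6) had none and are not analysed here. After the filter on dim probes, 6 members were measured on one array and 5 on the second array, beside 10852 and 10241 genes in all.

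The samples were primary neural stem cells from the cortex of SD rat embryos at day 14, grown in N2 medium that held the mitogen bFGF at 10 ng/mL. All cultures were transiently transfected with 4 µg of a retroviral expression plasmid, either MSCV-IRES-EGFP, without an insert, or a plasmid named rBcl-2-MSCV-IRES-EGFP that adds rat Bcl-2, which blocks cell death through mitochondria. On the withdrawal array, RNA of vector cells moved to NB medium without bFGF for 2 days was labelled red (Cy5) and RNA of vector cells kept with bFGF was labelled green (Cy3). On the second array, labelled Bcl-2, RNA of cells carrying rat Bcl-2 with bFGF was red and RNA of vector cells with bFGF was green. Loss of bFGF and the change of medium cannot be told apart, and whether transfected cells were sorted is not given in the sources used here. Each comparison had 1 array with no dye swap, so differences have no replicate check and no test was made.

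Dlx genes encode homeodomain transcription factors of the ventral forebrain, where most cortical interneurons are born. They lie in the genome as neighbouring pairs, Dlx1 with Dlx2 and Dlx5 with Dlx6, and drive the GABA fate together with Lhx6, a LIM homeodomain factor of interneurons from the medial ganglionic eminence. Gad1 and Gad2 encode the enzymes that make GABA from glutamate, and Slc32a1 encodes the transporter that loads GABA into synaptic vesicles. Npy and Sst encode neuropeptide Y and somatostatin, peptides that mark subsets of interneurons. Npy was the member measured by the most spots and Sst the peptide gene without signal well above background, so the bases before their annotated starts are shown. Both are from RefSeq, build GRCr8, plus strand, 5′ to 3′, chr4:80211861-80212110 for Npy and chr11:90461296-90461545 for Sst, with the homeodomain core TAATTA in capitals.
Npy: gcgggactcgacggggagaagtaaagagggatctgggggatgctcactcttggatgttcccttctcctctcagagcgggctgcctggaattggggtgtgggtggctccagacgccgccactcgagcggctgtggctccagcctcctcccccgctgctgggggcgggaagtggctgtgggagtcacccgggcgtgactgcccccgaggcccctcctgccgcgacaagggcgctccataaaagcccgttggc
Sst: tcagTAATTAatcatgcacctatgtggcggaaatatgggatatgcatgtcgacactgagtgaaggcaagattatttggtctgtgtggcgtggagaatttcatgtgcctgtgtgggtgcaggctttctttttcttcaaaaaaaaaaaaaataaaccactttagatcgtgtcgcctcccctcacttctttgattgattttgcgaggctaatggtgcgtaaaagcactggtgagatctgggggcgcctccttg

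Windows of 300 bases around the start were searched on both strands for TAATTA and for the cAMP response element TGACGTCA, which read the same on either strand and do not overlap one another. Windows were given for 7 members, and none was given for Dlx2, Dlx5 or Dlx6. Sst alone among the 7 held TAATTA, which was present in 5.36% of 33469 windows, and Sst alone held TGACGTCA, present in 1.83%. The latter match began 2 bases past the annotated start, outside the stretch printed above. Neither motif was found in the Npy, Dlx1, Lhx6, Gad1, Gad2 or Slc32a1 window. These matches describe letters in the windows, and binding was not measured in these data.

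The signals around these members set what can be read from them. Over 42877 gene spots, 66.1% to 72.0% were well above background in each of the 4 channels, and 0 were saturated. The 153 negative control spots had median signals on the withdrawal array of 96 (green) and 49 (red), and on the second array of 99 and 83. Of 11 neural precursor markers, 10 were measured on the withdrawal array and 9 on the second array, among them Nes, Sox2 and Pax6, while Sox1 had no matched probe and on the second array Msi1 lacked signal well above background. Of 10 astrocyte markers, 9 were measured on each array and are summarised further below. The remaining astrocyte marker, Gfap, was not well above background in any channel.

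The direction of the ratios was not settled. Across 42877 gene spots, the log2 ratios of these arrays, which share a dye orientation and a labelled control, had r = -0.67. With the ratio made by Agilent's Feature Extraction software r was -0.12. After scaling, the SD of the log2 difference of the green channels, labelled as the same cells, was 0.38 over 17301 probes, and that of the red channels was 0.35. Across dyes the SDs were smaller, 0.14 for red of the withdrawal array against green of the second and 0.15 for green of the withdrawal array against red of the second. The authors' value column for the second array matched the product of both arrays' ratios at 100% of 28395 probes, up to a constant. It matched that array's own ratio at 7.06%. Whether the channels of the second array are exchanged relative to its labels, or are otherwise not as labelled, was not tested. Ratios below are red over green as labelled, and with the sign of an array turned every value of that array changes sign and higher becomes lower.

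On the withdrawal array, 5 of the 6 measured members were higher in the channel without bFGF and 1, Gad1, was lower. Of these, Dlx5 and Lhx6 passed the filter on dim probes through red alone. With both channels required, 3 of 4 members were above 0, and with median centring or the Feature Extraction ratio 4 of 6. The share of all genes above 0 was not counted, for the members or for the lists below. Dlx5 and Npy led with log2 ratios of 1.98 and 0.78, followed by Slc32a1 at 0.46, Dlx1 at 0.18, Lhx6 at 0.056 and Gad1 at -0.17. The median of the 6 was 0.32 (-0.32 with the sign turned), beside 0.031 over all 10852 genes. By the rule of an absolute log2 ratio of at least 1 with all kept probes of the same sign, 1 member was at least 2-fold higher, Dlx5, and 0 were lower. The share of all genes past that limit was 2.42% upward, 0.47% downward and 2.89% in either direction. With the Feature Extraction ratio, 2 members passed (Dlx5 and Npy), beside 10.4% of all genes. In RNA from bulk cells, fewer or more cells of a type and less or more RNA per cell cannot be told apart.

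The 5 members measured on the second array lay between -0.33 and 0.19. Npy was at -0.33, Lhx6 at -0.066, Gad1 at -0.046, Dlx1 at 0.022 and Slc32a1 at 0.19. The median was -0.046 (0.046 with the sign turned), beside -0.013 over all 10241 genes. None of the 5 passed 2-fold, beside 0.557% of all genes upward, 2% downward and 2.56% in either direction. With the Feature Extraction ratio 1 of the 5 passed, Gad1 at -1.15, beside 10.2% of all genes, and Npy and Lhx6 were at -0.89 and -0.62. The arrays share their labelled control, so the values of both are set side by side and their likeness is not read as a result.

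**Figure D1:**
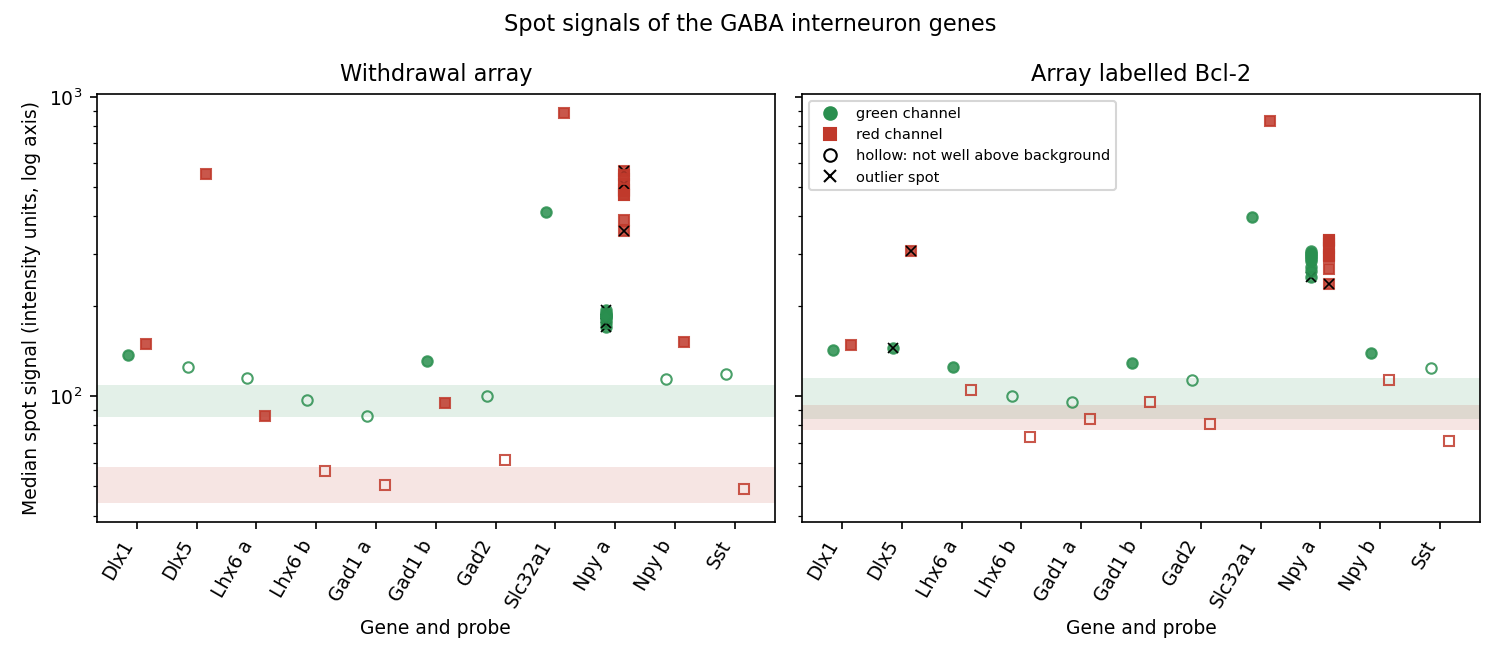
Median spot signal (log axis) of each member's probes in the green and red channels of both arrays, with 1 point per spot, hollow where the spot was not well above background and crossed where it was an outlier. Letters a and b separate 2 probes of a gene, and shaded bands span the 5th to 95th percentile of the negative control spots of each channel. Slc32a1, the repeated Npy probe and Dlx1 stood above the bands and were well above background in all 4 channels. Dlx5, the second Npy probe, the first Lhx6 probe and the second Gad1 probe were also above the bands, each with a hollow point. Sst, Gad2, the first Gad1 probe and the second Lhx6 probe lay in or near them.

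Of the 11 probes of the 8 members, 3 were well above background in all 4 channels and 4 in none. The better measured members were thus Npy, Slc32a1 and Dlx1. Spot noise is given below as the median SD of the log2 ratio over repeated spots of probes of like brightness, and covers no difference between cultures.

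Dlx5, the homeodomain gene with the highest ratio, rested on 1 spot per array. Its signal on the withdrawal array was 125 in green, not well above background, and 554 in red. With the dim channel at its measured level, Dlx5 was 3.95-fold higher in red. The spot noise was 0.088 (log2) for probes of like mean brightness, which does not single out probes with a dim channel. That fold is open to dye bias, and Dlx5 passed the filter on dim probes through red alone. Its log2 ratio was 1.98, 1.92 with the negative controls as background, and -1.98 with the sign turned. By the Feature Extraction ratio Dlx5 was at 4.04, with an error from the scanner software of 0.44.

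The red spot of Dlx5 on the second array was marked non-uniform by the scanner software and so was left out of the values above. The marked spot read 145 in green and 306.5 in red, and with outlier spots kept its log2 ratio was 0.76, or 2.49 by the Feature Extraction ratio. Red was thus the brighter channel on both arrays, though Bcl-2 cells with bFGF and vector cells without it were in red on different arrays. With the marked spot kept, the scaled level was 8.92 in red of the withdrawal array, 7.95 in red of the other, and 6.94 and 7.19 in the green channels, on the log2 scale. Dlx5 was therefore highest without bFGF as labelled, and lower in both green channels than in either red one. The part of the dyes in this pattern was not tested.

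Dlx1, partner of Dlx2 in its gene pair, was measured in all 4 channels by 1 spot. Its signals on the withdrawal array were 137 in green and 150 in red, and 143 in green against 148.5 in red on the second array. The log2 ratio of 0.18 compares with a spot noise of 0.12 and that of 0.022 with 0.097. Dlx1 thus differed little between channels while Dlx5, on the withdrawal array, differed widely. Dlx3, well above background in all 4 channels, was at 0.018 on the withdrawal array and -0.031 on the second. Dlx4 was not well above background in green of either array. Its log2 ratios were -0.019 and 0.14, and by the Feature Extraction ratio 0.43 and 2.36, so its value on the second array depends on the setting.

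Lhx6, which specifies interneurons of the medial ganglionic eminence, was dim. The brighter of its 2 probes read 115 in green against 86 in red on the withdrawal array, where red alone was well above background. On the second array it read 125 in green and 105 in red, and green alone was well above background. Its log2 ratios of 0.056 and -0.066 were within the spot noise of 0.16 and 0.093. The other Lhx6 probe was well above background in no channel, with 97.5 and 56.5 on the withdrawal array and 100 and 73 on the second array, and carries no ratio here. By the Feature Extraction ratio the brighter probe was at -0.017 and -0.62, with errors of 0.41 and 0.48, and the value table gave 0.16 and -0.76. The size of the Lhx6 ratio on the second array thus depends on the setting.

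Slc32a1, the vesicular GABA transporter, stood well clear of background in every channel. It read 411.5 in green against 884 in red on the withdrawal array, and 397.5 in green against 830 in red on the second array. The red signal is larger on both arrays before the dyes are balanced, so the raw values give no fold. After loess the log2 ratio was 0.46, or 1.38-fold, on the withdrawal array and 0.19, or 1.14-fold, on the second array, with a spot noise of 0.049 and 0.054. With the signs as labelled, Slc32a1 was between 0.43 and 0.72 on the withdrawal array and between 0.064 and 0.32 on the second array in the settings that measured it. With the signs turned it was at -0.46 and -0.19.

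The enzymes that make GABA were close to the limit of detection. The brighter Gad1 probe read 131 in green against 95 in red on the withdrawal array, both well above background, and 129 in green against 96 in red on the second array, where red was not. Its red signals on both arrays were almost equal, but 96 on the second array stood close to the 95th percentile of the negative controls there, 93.6, while 95 on the withdrawal array stood far above 58.0. The log2 ratios of -0.17 and -0.046 compare with a spot noise of 0.14 and 0.094. The Feature Extraction ratio of the same probe was -0.39 and -1.15, with errors from the scanner software of 0.33 and 0.66, so on the second array the setting decided whether Gad1 passed the 2-fold limit.

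The other Gad1 probe was well above background in no channel, at 86 and 50.5 on the withdrawal array and 96 and 84 on the second array. Gad2, the second enzyme, was not measured: its 1 probe read 100 in green against 61.5 in red on the withdrawal array and 113 and 81 on the second array. Sst was not measured either, with 119 in green against 49 in red on the withdrawal array and 124 and 71 on the second array. The red values of Sst were at or below the negative control medians of 49 and 83, and the green values were above the 95th percentiles of 109 and 115. Neither gene is given a ratio.

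**Figure D2:**
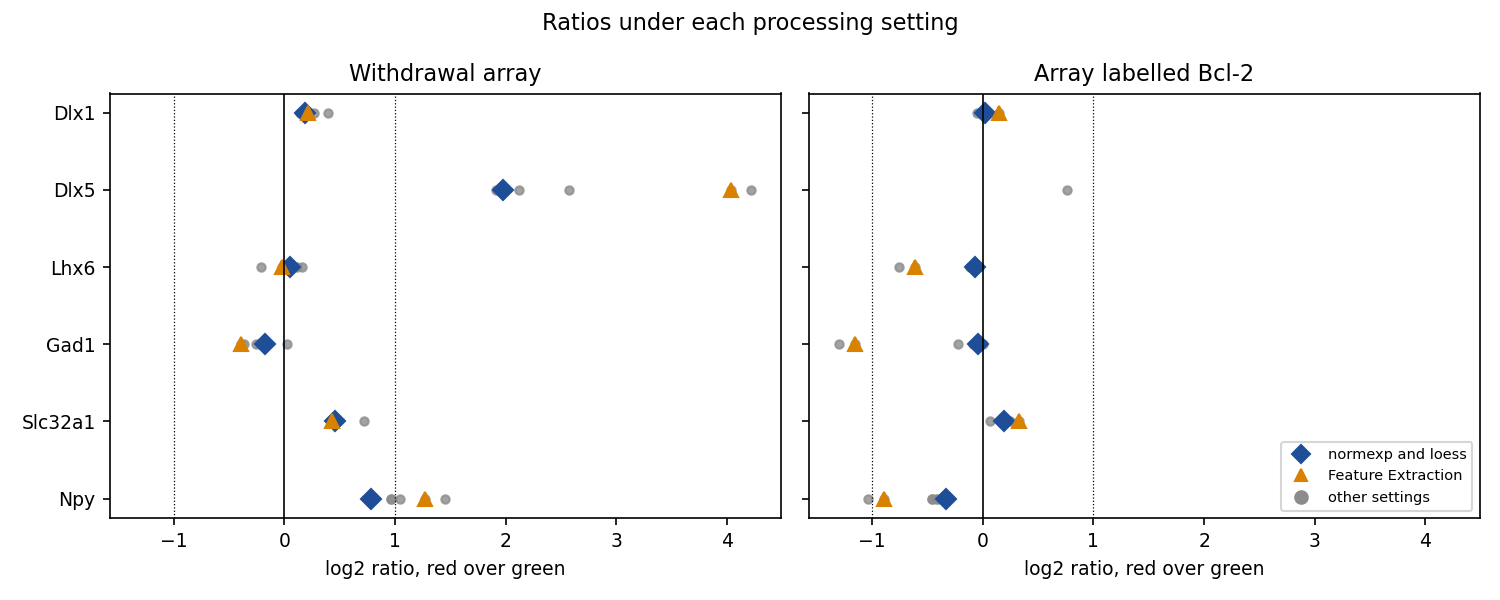
Log2 ratio of red over green (x axis) of each measured member (y axis) on both arrays, with diamonds for normexp and loess, triangles for the Feature Extraction ratio and grey points for the other settings. Dotted lines mark 2-fold. Dlx5 lay beyond 2-fold on the withdrawal array in each setting that measured it, and Npy lay above 0 on that array and below 0 on the second array in the settings drawn, which keep the signs as labelled.

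Npy, the interneuron peptide with the best measured signal, was higher without bFGF and lower with Bcl-2 as labelled, at 0.78 and -0.33 (-0.78 and 0.33 with the signs turned). Its main probe was printed 10 times on each array. On the withdrawal array, the 7 spots left after outliers had a lowest, median and highest signal of 180, 185 and 190 in green and of 387, 485 and 550 in red. The 9 spots kept on the second array had 263, 291 and 307 in green and 267, 313 and 333 in red, in the same order. Green read lower on the withdrawal array, although both green channels are labelled as vector cells with bFGF. These signals are not scaled between the arrays. After scaling, the green channels also differed over all 17301 probes compared, with an SD of 0.38 (log2).

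The log2 ratio of this probe was 0.97 ± 0.13 (SD over 7 spots of 1 array) on the withdrawal array and -0.45 ± 0.048 (SD over 9 spots of 1 array) on the second array. These spots are technical repeats of 1 hybridisation, from 0.78 to 1.15 on the first and from -0.52 to -0.39 on the second. The second Npy probe, printed once, had a log2 ratio of 0.60 and -0.21. It read 114 in green, not well above background, and 151.5 in red on the withdrawal array. It read 140 in green and 113 in red, not well above background, on the second array. Both probes gave the same sign on each array. The second passed the filter on dim probes only through the channel where it was higher, so it is no separate check of the sign. The medians over both probes, 0.78 and -0.33, are the gene's values.

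In scaled levels of the main probe, Npy was highest in red of the withdrawal array at 8.68, then in green of the second array at 8.51, in red of that array at 8.06 and in green of the withdrawal array at 7.71. The SD over spots was 0.14, 0.090, 0.089 and 0.041 in the same order. The step of 8.68 to 8.51 was about the size of these SDs, and the other steps were larger than them. Red against red, a comparison within 1 dye, Npy was 0.62 higher on the withdrawal array, and the second probe was 0.46 higher. Green against green, where the labels name the same cells, the differences were -0.80 and -0.35.

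Dlx1 and Slc32a1 differed less within a dye. Dlx1 was 0.18 higher and Slc32a1 0.17 higher in red of the withdrawal array than in red of the second array. In green the corresponding differences were 0.014 for Dlx1 and -0.11 for Slc32a1. With quantile scaling Dlx1 was at 0.13 in red and 0.046 in green. Slc32a1 was then at 0.068 in red and 0.027 in green, so the sign of its green difference depends on the setting. Among members well above background in both red channels, the median red difference was 0.18, taken over 3 probes.

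**Figure D3:**
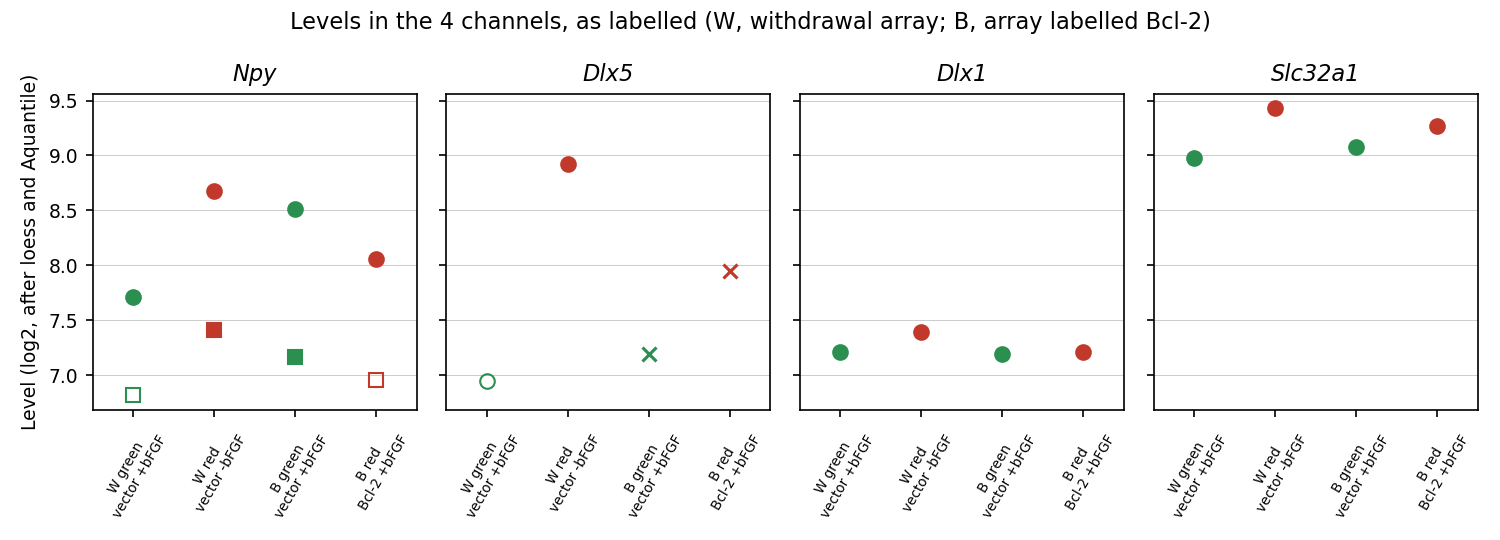
Level on the log2 scale after loess and Aquantile (y axis) in the 4 channels of the withdrawal array (W) and the second array (B), with green and red marks for the dyes, hollow marks where not well above background and crosses for the marked Dlx5 spot. For Npy, circles are the main probe and squares the second. Npy was high in W red and B green, at 8.68 and 8.51, whereas Dlx5 was highest in W red at 8.92 and low in both green channels.

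Genes that act with the members were taken from 8 lists chosen with earlier results of these data known. Among 25 listed ventral telencephalon factors, 10 were measured on the withdrawal array with a median of -0.048 and 8 on the second array with 0.094, and 0 were at least 2-fold. The homeodomain factor Meis1 was at 0.13 and -0.26, and the progenitor factor Olig2 at -0.20 and 0.26. Of the 10 measured on the withdrawal array, 5 were above 0 and 5 below.

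Genes of interneuron migration and maturation were mostly higher without bFGF, 17 of 18 measured, with a median of 0.29, and 12 of 18 were below 0 on the second array, with a median of -0.17. Cxcl12, a chemokine that guides migrating interneurons, was the 1 gene at least 2-fold on each array, at 1.39 and -1.24. Nr2f1 and Nr2f2, nuclear receptors of caudal interneurons, were at 0.31 and 0.20 on the withdrawal array and -0.36 and -0.40 on the second array. Zeb2, which steers interneurons to the cortex, was at 0.31 and -0.59, and the chromatin factor Satb1 at 0.23 and -0.23.

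Interneuron peptides, calcium-binding proteins and subtype markers had 14 of 27 genes measured on the withdrawal array and 12 on the second array, with medians of -0.028 and 0.12 and 0 at least 2-fold. Htr3a, the serotonin receptor of caudal interneurons, was at 0.69 and -0.0069, the calretinin gene Calb2 at 0.34 and 0.017, the peptide gene Cort at -0.21 and 0.11 and Th, tyrosine hydroxylase, at 0.0081 and 0.14. On the withdrawal array 7 of the 14 were above 0 and 7 below, the highest at 0.69.

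Genes that move and break down GABA differed among themselves. Of 13 measured on the withdrawal array 1 was at least 2-fold higher and 1 lower, with a median of 0.080. Abat, the transaminase that degrades GABA, was at 1.77 there and -1.29 on the second array. Slc38a2, a glutamine transporter, was at -1.18 and 1.20. Glul, glutamine synthetase of astrocytes, was at 0.88 and -1.13. Of 11 measured on the second array, 1 was at least 2-fold higher and 2 were lower.

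Receptors for GABA and their scaffold were higher without bFGF in 13 of 14 measured genes, with a median of 0.32, and 10 of 14 were below 0 on the second array, with a median of -0.28. The subunit gene Gabrg1 was at 1.45 and -1.80. The subunit gene Gabrb1 was not well above background in green of the withdrawal array, and at the measured levels red was 2.55-fold higher. On the second array Gabrb1 was not well above background in red, and at the measured levels green was 1.58-fold higher. The scaffold gene Gphn was at 0.013 and 0.057, and the autophagy-related genes Gabarap and Gabarapl1 at 0.42 and 0.28 on the withdrawal array and -0.85 and -0.48 on the second array.

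For contrast, the cortical glutamatergic lineage had 7 of 22 genes measured on the withdrawal array with a median of 0.097, and 8 on the second array with -0.11. Emx2 was at 0.22 and -0.19 and Lhx2 at 0.097 and -0.080. Neurod2, a factor of maturing glutamatergic neurons, was well above background only in red of the second array, which exceeded green by at least 1.54-fold. Pan-neuronal genes had a median of 0.45 over 12 measured and -0.25 on the second array, with Tubb3, the neuronal tubulin, at 1.03 and -0.58 and the adhesion gene Ncam1 at 1.04 and -1.25. The members' median of 0.32 on the withdrawal array lay below that of the pan-neuronal genes and close to that of the GABA receptors, and these medians were not tested against each other.

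Markers of astrocytes and fibroblasts differed in the same channels. On the withdrawal array 4 of 9 measured markers were at least 2-fold higher and 9 of 9 were above 0, with a summed level of 35899 in red and 10396 in green. On the second array, 4 of 9 were at least 2-fold lower and 9 of 9 below 0, with 11801 in red and 35070 in green. Fibroblast and meninges markers were above 0 for 8 of 8 on the withdrawal array, from 0.041 to 3.23, and 2 were at least 2-fold higher. Their summed level there was 15551 in red and 7065 in green. On the second array 7 of 7 were below 0 and 5 were at least 2-fold lower, with 4960 in red and 14710 in green. Of the oligodendrocyte, microglia and endothelium markers measured, 0 were at least 2-fold on either array. Glul is itself on the astrocyte list. The part of these cells in the values of Npy, Abat and Glul was not tested.

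**Figure D4:**
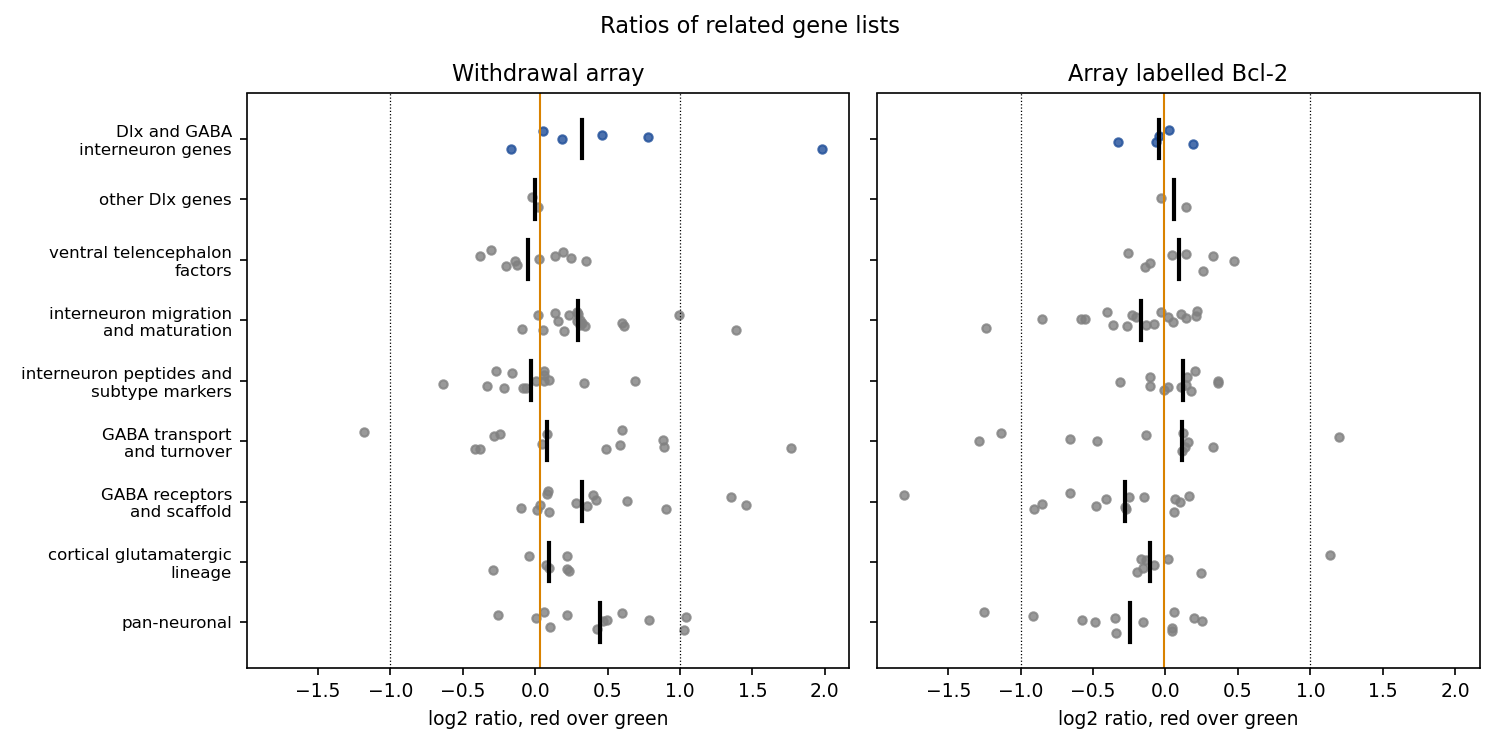
Log2 ratio of red over green (x axis) of each measured gene in the set of Dlx and GABA interneuron genes (top row) and in the 8 related lists, with black bars at list medians, an orange line at the median of all genes and dotted lines at 2-fold. On the withdrawal array Dlx5, at 1.98, lies apart from the other members.

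Over both arrays, Calb2 and Nrg1 were among the 3 genes of the related lists nearest to the median of the members, of 83 measured on both. Their distances were 0.065 and 0.070, taken over 2 log2 ratios, 1 per array. Calb2 was well above background in all 4 channels. Nrg1, a ligand of the interneuron receptor Erbb4, was well above background only in red of the withdrawal array and only in green of the second, so its position rests on dim channels. Its red level exceeded green by at least 1.26-fold on the withdrawal array, and no fold is given for the second. With 2 values per gene this likeness is a description of position alone.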

How the data were processed

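Total RNA was hybridised to 2 two-colour Agilent rat arrays. Per the file headers, the deposited intensity values are median pixel signals of spots and local background, not normalized, from Feature Extraction 11.5.1.1 on array design 028282, build rn4. Version 8.5.1.1 of that software is named in the submitters' processing notes. The deposited log10 ratio (printed here as log2) with its error, the deposited p-value (not used here) and flags of outlier and well above background come from the same software, per the file headers.

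A value table deposited by the authors gives linear ratios (column medians 0.932 and 0.944), and no source states how they were scaled, centred or directed. Up to a constant and a tolerance of 0.05 (log2), column 1 matched the scanner ratio of the withdrawal array at 100% of 28395 probes. Column 2 matched its own array at 7.06%, but the product of both arrays' ratios at 100%. As an alternative, the first column and the quotient of the columns were used, each centred on its median.

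Background was corrected by normexp (offset 50) and dyes were balanced by loess, giving control spots weight 0 (limma 3.58.1, R 4.3.3), a step tested on simulated data. Outlier spots (534 and 576) were left out, spots of a probe averaged, and probes kept where 1 or both channels were well above background. Accessions were matched to RefSeq transcripts (GRCr8, for names), naming 60.4% of probes. A gene's value is the median over kept probes. Levels were scaled between arrays by Aquantile. Where 1 channel was dim, the fold is set against the higher of the dim level and the lowest level well above background. It is given as a lower bound only where the dim level was the lower of these. Tables were made in Python 3.11.15 with pandas 2.3.3.

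All 10 members are named. From the related lists, genes at least 2-fold on either array and up to 4 further genes of highest intensity may be named, and the 3 nearest to the members' median. Some genes that this rule names are not reported here. Members and lists were chosen with earlier results of these data known. Alternatives were an offset of 10, median centring, the Feature Extraction ratio, both or no background filters, the brightest probe, the value table, the sign turned and quantile scaling. Negative controls as background and outlier spots kept were added after seeing the data.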

Additional observations from a re-analysis of the deposited data

How the results depend on the processing

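No paired analysis was possible because each comparison has 1 array and the labels give no replicate numbers. The median of the members on the withdrawal array was 0.14 with no filter on dim probes and -0.32 with the sign turned, where Dlx5 became -1.98. In the remaining settings it stayed between 0.31 and 0.43. The count of members at least 2-fold there was 2 with an offset of 10, the value table and the Feature Extraction ratio, as Npy joined Dlx5, and 0 with both channels required, which removed Dlx5. Over all genes the count of 314 became 536 with an offset of 10, 507 with median centring, 1124 with the Feature Extraction ratio (10.4% of genes) and 1277 with the value table. Median centring moved the median of all genes on that array to 0.17, and the value table to 0.16. Median centring also took the share of higher genes among those at least 2-fold from 83.8% (16.2% with the sign turned) to 93.3%.

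On the second array, the members' median was -0.90 by the value table, -0.62 by the Feature Extraction ratio and 0.022 with both channels required. The count at least 2-fold was 2 (Gad1 and Npy, lower) by the value table and 1 (Gad1, lower) by the Feature Extraction ratio, beside 1105 and 1048 (10.2%) of all genes in place of 262. The Feature Extraction ratio took the share of higher genes from 21.8% (78.2% with the sign turned) to 34.2%. Of the other members, Lhx6 on the withdrawal array was below 0 with median centring at -0.21 and the Feature Extraction ratio at -0.017. Lhx6 on the second array moved from -0.066 to -0.62 by the Feature Extraction ratio and -0.76 by the value table. Gad1 was at 0.023 and 0.0041 without the filter, and Dlx1 on the second array was at -0.049 with median centring and -0.0026 with the value table. With an offset of 10 in place of 50, Lhx6 and Gad1 on the second array were at -0.084 and -0.055. The causes of the shifts between settings were not tested. The median red difference of 0.18 became 0.13 with quantile scaling. Slc32a1 had no entry in the value table, and Dlx5 on the second array had a value in 1 setting alone.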
